A study of Saccharomyces cerevisiae with 6 samples.

Results

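The unmodified yeast strain W303-1A (here W303) after 10 h with doxycycline is the subject of these results, and it was followed on the 2 arrays titled W303doxy, of 6 arrays in all. They were chosen by their titles alone, Exp 1 (array 1) and Exp 2 (array 2), and gave 1 log2 ratio for each of 6174 open reading frames (ORFs). On both arrays W303 cells with 2 µg/ml doxycycline were set against W303 cells without it. The treated RNA carried Cy5 on array 1 and Cy3 on array 2, so the arrays form a dye swap. The other 4 arrays hold tetYFH1 (BQS201, W303-1A tetO7-YFH1::kanMX4), in which doxycycline shuts off the frataxin gene YFH1 through its tet promoter. These were treated likewise and fall into pairs A (A1, A2) and B (B1, B2). All cultures grew at 30 °C in YPG, a rich glycerol medium, to an A600 of 0.5.

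The W303 arrays ask what the antibiotic and the 10 h of culture do without any loss of frataxin. Their titles read 0 h against 10 h, so the drug and the time cannot be told apart. Every ratio is doxycycline over untreated, as labelled, and a value of 1 is a 2-fold higher level in treated cells. In W303 that direction rests on the labels alone. Ratios show changes of a transcript against all others in the culture, not its level. YFH1, which has no tet promoter in W303, read -0.08 on array 1 and -0.05 on array 2. In tetYFH1 it read -2.64 (A1), -3.29 (A2), -5.38 (B1) and -5.11 (B2).

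Doxycycline is a tetracycline. This class of antibiotic blocks bacterial protein synthesis at the small ribosomal subunit, and yeast geneticists use it as a switch for engineered promoters. Budding yeast couples its growth to the making of ribosomes: genes for ribosomal proteins, for the factors that assemble ribosomes and for RNA polymerase I are turned up in fast growth and down under starvation or stress. Genes for trehalose and glycogen, for chaperones and for the general stress response commonly move the other way. Cells on glycerol depend on respiration, and therefore on the separate ribosomes of their mitochondria.

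In W303 the genes that read lowest on both arrays included genes of ribosome assembly, metal uptake and the cell wall, together with the desiccation genes GRE1 and SIP18. Sterol synthesis read low as a list, with a median of -0.544 over the means of both arrays. The genes that read highest included genes of trehalose and glycogen stores, protein folding and respiratory growth, together with the amino acid permease GAP1 and the citrate synthase CIT2. Of the 6174 ORFs, 1856 (30.1%) were above 0 on both arrays and 1352 (21.9%) below 0 on both. A mean of at least 2-fold with the same sign on both arrays was reached by 27 ORFs that were higher (0.437%) and 61 that were lower (0.988%). With a mean of at least 1.5-fold there were 169 higher (2.74%) and 314 lower (5.09%).

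No gene passed the test on pair means. In limma's moderated test of the W303 pair mean against 0, with Benjamini-Hochberg adjustment over all ORFs, 0 of 6174 had an adjusted p under 0.05 (0%). The smallest adjusted p was 0.999, and 162 ORFs (2.62%) had an unadjusted p under 0.05. A dye swap counted as 1 replicate, so the spread came from the tetYFH1 pairs. With the arrays entered singly and each pair as a random block, limma called 3 genes: GAP1 higher (adjusted p = 0.0358), and GRE1 (0.0358) and STL1 (0.0476) lower. In that fit the estimated correlation of arrays within a pair was -0.072, so each array in effect counted as a replicate. The sizes given from here on are therefore descriptions, and most are given with the value on both arrays.

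**Figure D1:**
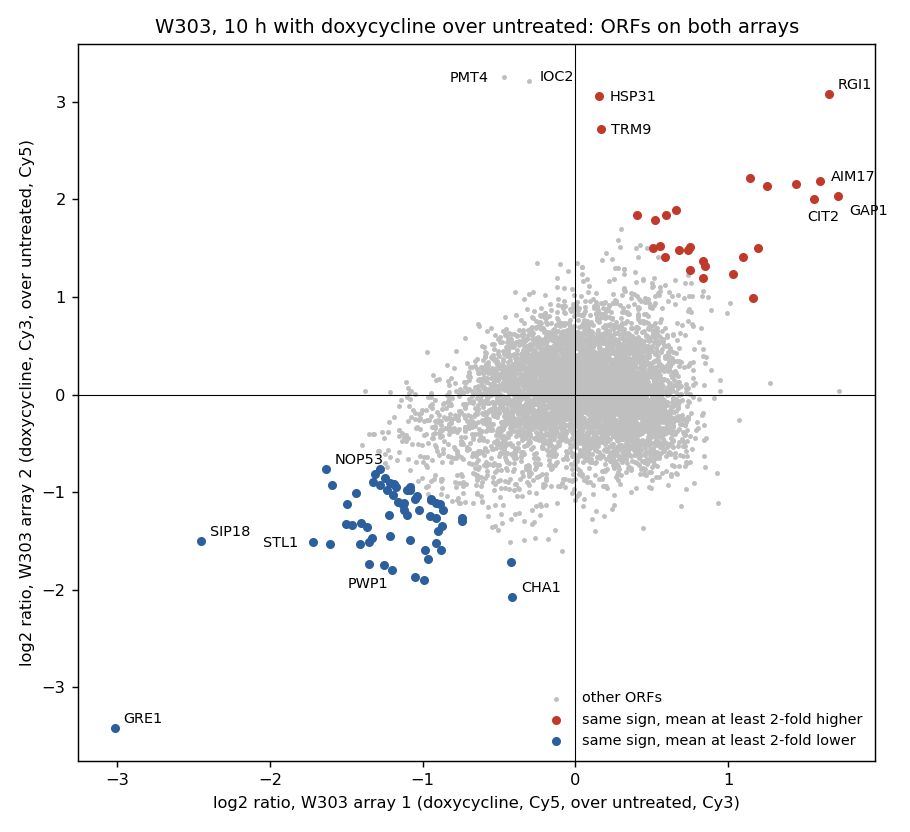
Log2 ratios of doxycycline over untreated in W303, with array 1 across and array 2 upward, 1 point for each of 6174 ORFs. Red points are the 27 ORFs with the same sign and a mean at least 2-fold higher, blue points the 61 that were lower; GRE1 lies alone at the lower left, and PMT4 and IOC2 are high on array 2 and below 0 on array 1.

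The arrays were weakly related over all ORFs, and most of the ORFs at least 2-fold from 0 kept their sign. Of all 6174 ORFs, 3208 (52.0%) had the same sign on both arrays. Over the 6174 ORFs array 1 correlated with array 2 with Pearson's r = 0.236 and Spearman's rho = 0.097. This is a description across ORFs, which share the same 2 hybridisations. The tetYFH1 pairs had r = 0.596 (pair A) and 0.399 (pair B). Of the 106 ORFs at least 2-fold lower on array 1, 99 (93.4%) were below 0 on array 2 as well, and 29 were at least 2-fold lower on both. Of the 115 at least 2-fold lower on array 2, 98 (85.2%) were below 0 on array 1. On the high side the numbers were unequal, with 15 ORFs at least 2-fold higher on array 1 and 102 on array 2. Of those 15, 14 (93.3%) were above 0 on array 2, and of those 102, 88 (86.3%) were above 0 on array 1, where their median was 0.41. Of the 27 higher ORFs 26 had the larger value on array 2. At 1.5-fold, 148 of the 304 ORFs higher on array 1 (48.7%) and 375 of the 462 lower (81.2%) kept their sign on array 2. Those 304 had a median of -0.034 on array 2, where 3215 of all 6174 ORFs were above 0 and 2954 below. The higher ORFs of array 1 at this limit thus kept no direction on array 2. Of those past 1.5-fold on array 2, 345 of 500 higher (69.0%) and 328 of 537 lower (61.1%) kept their sign on array 1.

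Array 2 alone carried a few of the largest values. HSP31, a stress-induced chaperone and glyoxalase, read 0.15 on array 1 and 3.06 on array 2. TRM9, a tRNA methyltransferase, read 0.17 and 2.72. PMT4, a protein mannosyltransferase, read -0.47 and 3.26, and IOC2, a subunit of a chromatin remodeller, read -0.30 and 3.21, so that neither counted among the 27. These 4 were high on array 2 only. Of 90 ORFs with a mean of at least 2-fold, PMT4 and IOC2 were the 2 with opposite signs. Just inside the 2-fold limit stood ATG8 (0.59 and 1.41 on arrays 1 and 2, mean 1.00) and SXM1 (-0.74 and -1.27, mean -1.0). Just outside stood LSM1 (0.30 and 1.69, mean 0.99) and YPS3 (-1.07 and -0.92, mean -0.99).

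Genes of ribosome assembly were the largest group on the low side. The 121 listed factors process ribosomal RNA and build both subunits. Their median was -0.48 on array 1 and -0.68 on array 2, against medians of 0.067 and 0.021 over all ORFs. Over all ORFs, for this and the later lists, 30.1% were above 0 on both arrays and 21.9% below. The shares at least 1.5-fold higher and lower were 2.74% and 5.09%. Below 0 on both arrays were 82 of the 121 factors and above 0 on both were 7. At least 1.5-fold lower were 57 factors, and 1 was at least 1.5-fold higher. They supplied 22 of the 61 ORFs at least 2-fold lower (36.1%), which is 18.2% of the list. PWP1, which acts in the making of the large subunit, read -1.35 on array 1 and -1.74 on array 2. UTP18 and UTP4 belong to the processome that cleaves the precursor of the small subunit's RNA. UTP18 read -1.35 and -1.51, and UTP4 read -1.05 and -1.87. TSR1, needed for the last steps of the small subunit, read -1.21 and -1.45. All 4 lay more than 2-fold low on each array.

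Other assembly factors had similar values. PUF6, an RNA-binding protein, read -1.49 on array 1 and -1.12 on array 2, and the helicase DBP10 read -1.44 and -1.01. NOP53 read -1.63 and -0.76. CBF5, the pseudouridine synthase of the snoRNPs, read -1.23 and -0.98, and its partner NHP2 read -1.33 and -0.89. GAR1, another member of that complex, went against its partners with 0.48 and 0.98. DBP2, an RNA helicase outside the list, read -1.50 and -1.32. The factors were thus not uniform, and some had ratios near 0: RRP5 read 0.12 and -0.10, and UTP10 read 0.06 and 0.03.

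RNA polymerases I and III transcribe ribosomal and transfer RNA. Of 19 measured subunits 12 were below 0 on both arrays and 2 above, with medians of -0.40 on array 1 and -0.26 on array 2. RPA135, the second largest subunit of polymerase I, read -1.12 and -1.19, and RPA49 read -1.0 and -0.86. RPC82, a subunit of polymerase III, read -0.77 and -1.06. The largest polymerase I subunit stood apart, with RPA190 at 0.16 and 0.28.

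Cytosolic ribosomal proteins were lower by smaller amounts and mainly on array 1. Of 134 measured members (139 listed), 97 were below 0 on both arrays, 11 above 0 on both, 43 at least 1.5-fold lower and 0 at least 2-fold lower. Their median was -0.74 on array 1 and -0.23 on array 2, so the size differed between the dye orientations while the sign of the median did not. RPL8B read -1.10 and -0.67, RPL22B -1.23 and -0.57, and RPL7A lay on the other side with 0.84 and 0.47. Many of these genes have a near-identical copy, and how the probes divide such copies is not given in the sources used here.

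The rest of the cytosolic translation machinery read low too. Translation factors had 21 of 31 members below 0 on both arrays and 1 above, with medians of -0.46 on array 1 and -0.16 on array 2. NIP1, a subunit of initiation factor eIF3, read -0.94 and -0.89, and TIF4631, the scaffold eIF4G, read -0.74 and -0.94. Cytosolic tRNA synthetases had 11 of 19 below 0 on both arrays and 0 above, with medians of -0.29 and -0.47. The tryptophanyl-tRNA synthetase WRS1 read -0.96 and -0.94, and the lysyl-tRNA synthetase KRS1 read -1.04 and -0.70.

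Mitochondrial ribosomal proteins lay on the high side. Of 75 genes 54 were above 0 on both arrays and 1 below 0 on both, with medians of 0.24 on array 1 and 0.59 on array 2. The shifts were small: 10 members were at least 1.5-fold higher and 0 at least 2-fold. MRPS8 of the small subunit read 0.57 on both arrays, MNP1 of the large subunit 0.67 and 0.56, and MRPL25 0.53 and 0.65. EHD3, whose product is found with these ribosomes and acts in valine breakdown, was the member below 0 on both, at -0.41 and -0.32. Mitochondrial translation factors and tRNA synthetases had 13 of 22 members above 0 on both arrays and 0 below, with medians of 0.15 and 0.35.

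Factors that assemble the respiratory chain had 19 of 35 measured members above 0 on both arrays and 2 below, with medians of 0.29 on array 1 and 0.31 on array 2. COX17, the copper chaperone of cytochrome oxidase, read 0.72 and 0.99. SCO1, which passes copper on to that enzyme, read 0.47 and 0.49, and ATP11, a chaperone of ATP synthase, read 0.47 and 0.56. The subunits of the chain itself did not keep a direction, with 7 of 27 above 0 on both arrays, 4 below, and medians of -0.25 and 0.24. ATP synthase subunits had medians of -0.47 on array 1 and 0.09 on array 2. No direction can be given for the chain or for ATP synthase, since their medians had opposite signs on the 2 arrays.

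**Figure D2:**
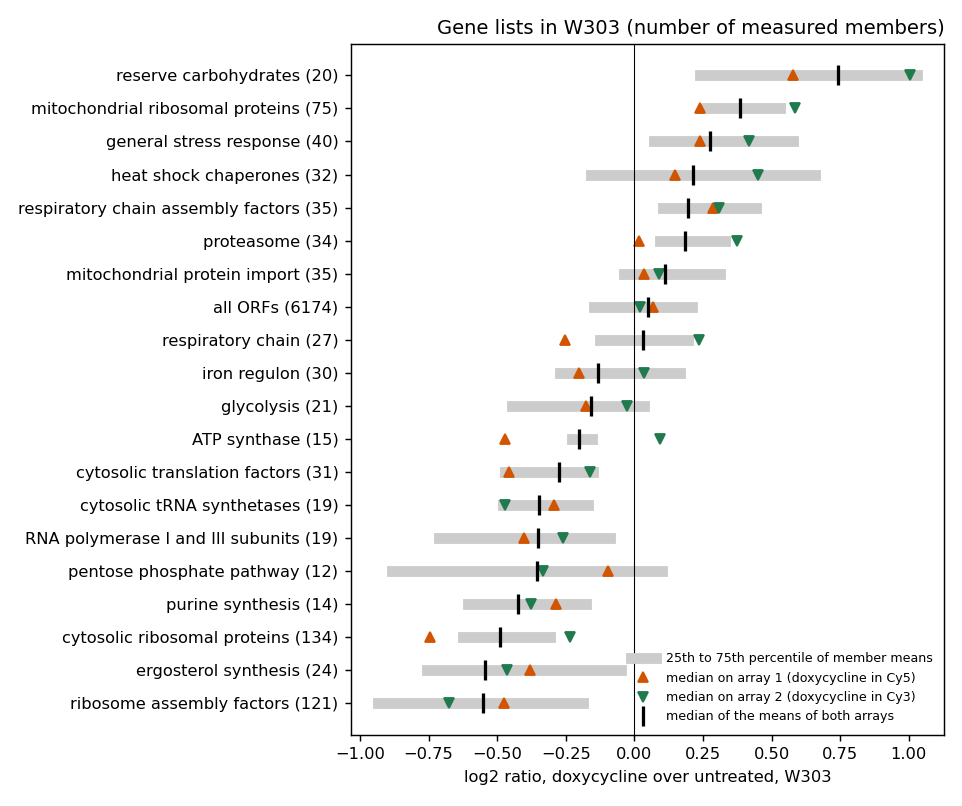
Medians of 19 gene lists and of all ORFs in W303, as log2 ratios of doxycycline over untreated on array 1 (orange) and array 2 (green), with the median of the means of both arrays (black) and the range from the 25th to the 75th percentile of the member means (grey). Reserve carbohydrates (0.74) stand at the top and ribosome assembly factors (-0.55) at the bottom, and the arrays differ in sign for the iron regulon, the respiratory chain and ATP synthase.

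Trehalose and glycogen genes formed the highest list. Of its 20 genes 15 were above 0 on both arrays and 1 below, 12 were at least 1.5-fold higher and 6 at least 2-fold, which is 22.2% of the 27 higher ORFs and 30.0% of the list. Its median was 0.58 on array 1 and 1.01 on array 2. PGM2, the phosphoglucomutase that feeds both sugars, read 1.20 and 1.5. UGP1, which makes UDP-glucose from its product, read 1.02 and 0.94. These steps supply both stores, and both genes lay high on each array.

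All 4 subunits of the trehalose synthase complex were higher on both arrays. The synthase TPS1 read 0.66 on array 1 and 1.18 on array 2, and the phosphatase TPS2 read 0.75 and 1.28. The regulatory subunit TSL1 read 0.68 and 1.48, and TPS3 read 0.60 and 1.84. Array 2 gave the larger value for each. The trehalases that break the sugar down were above 0 on both arrays in NTH1 (0.15 and 0.24) and NTH2 (0.28 and 1.30), while ATH1 had opposite signs (-0.20 and 1.02).

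In the glycogen branch the branching enzyme GLC3 read 1.16 on array 1 and 0.99 on array 2. The synthase GSY1 read 0.89 and 0.25, and its isoform GSY2 read 0.33 and 1.06. The debranching enzyme GDB1 read 0.66 and 1.89. Enzymes of synthesis and of breakdown were thus both among the high values. The primer GLG1 read 0.52 and 0.66, but GLG2 had opposite signs (0.69 and -0.30). Glycogen phosphorylase GPH1 was near 0, at 0.06 and -0.07, and GAC1, a phosphatase subunit that targets glycogen synthase, was the member below 0 on both, at -0.20 and -0.30. HXK1, a hexokinase from the glycolysis list, read 0.84 and 1.19.

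**Figure D3:**
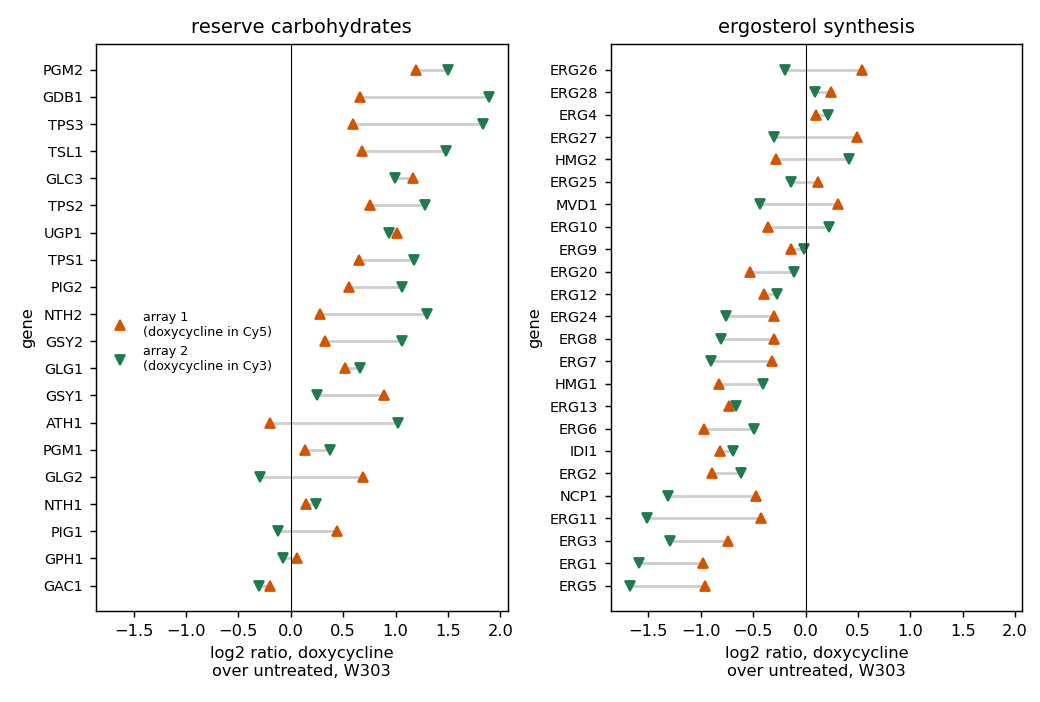
Each gene of the reserve carbohydrate list (left, 20 genes) and of the ergosterol list (right, 24 genes) in W303, as log2 ratios of doxycycline over untreated on array 1 (orange) and array 2 (green), ordered by the mean. On the left 15 genes lie above 0 on both arrays, and on the right 16 lie below 0 on both.

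Ergosterol is the main sterol of yeast membranes, and most of its pathway read low. Of 24 genes 16 were below 0 on both arrays and 2 above, 11 were at least 1.5-fold lower and 3 at least 2-fold, with medians of -0.38 on array 1 and -0.46 on array 2. ERG1, the squalene epoxidase, read -0.98 and -1.59. The desaturases of the late steps also read low, ERG5 with -0.96 and -1.68 and ERG3 with -0.74 and -1.30. ERG11, the demethylase that azole drugs inhibit, read -0.43 and -1.51. Of the early steps, IDI1, the isomerase of isoprenoid units, read -0.81 and -0.69, and ERG13, the HMG-CoA synthase, -0.74 and -0.67. Above 0 on both arrays were ERG4 (0.10 and 0.21) and ERG28 (0.24 and 0.09). OLE1, the fatty acid desaturase, read -1.10 and -0.97.

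Several genes of metal uptake were among the lowest single genes. In the copper and zinc transport list 7 of 17 genes were below 0 on both arrays, 2 above, 4 at least 1.5-fold lower and 0 higher, and the medians were -0.03 on array 1 and -0.34 on array 2. FRE1, the surface reductase that serves iron and copper uptake, read -1.33 on array 1 and -1.47 on array 2. FRE7, a related reductase, read -1.36 on both. The metal transporter FET4, of low affinity for iron, read -1.25 and -1.75. The siderophore transporter SIT1 read -1.20 and -1.79, its relative ARN1 read -0.53 and -1.35, and ARN2 read -0.53 and -1.13. The copper transporter CTR1 read -0.97 and -0.74. These are genes of the plasma membrane or of siderophore uptake. The multicopper oxidase FET3, which works in high-affinity iron uptake, read -0.08 and -0.27, while its partner FTR1 read -0.50 and -1.05. Over the 30 measured genes of the iron regulon, 11 were below 0 on both arrays (36.7%, against 21.9% of all ORFs). Above 0 on both were 7 (23.3%, against 30.1%). Of the 30 genes 5 were at least 1.5-fold lower and 0 higher, against 5.09% and 2.74% of all ORFs. Their median was -0.20 on array 1 and 0.04 on array 2, so it had opposite signs.

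General stress genes pointed in both directions. Of 40 listed genes 25 were above 0 on both arrays and 8 below, with 10 at least 1.5-fold higher and 6 lower, and medians of 0.24 on array 1 and 0.42 on array 2. RGI1, a gene of energy metabolism in respiratory growth, had the highest W303 mean of all 6174 ORFs, reading 1.66 and 3.08 (mean 2.37, 5.16-fold). YNL194C, a membrane protein of the Sur7 family, read 1.45 and 2.16, and RTC3 read 0.56 and 1.53. At the other end GRE1, a hydrophilin of osmotic and drying stress, had the lowest value on each array, at -3.02 and -3.42 (mean -3.22, 9.31-fold lower). SIP18, another gene of drying stress, read -2.45 and -1.50. The catalase CTT1 read -0.26 and -1.01, and HSP12, often used as a marker of this response, had opposite signs (-0.40 and 0.52).

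Chaperones were also split. Of 32 listed genes 18 were above 0 on both arrays and 8 below, with 9 at least 1.5-fold higher and 2 lower, and medians of 0.15 on array 1 and 0.45 on array 2. HSP42, a small heat shock protein that gathers misfolded proteins, read 1.25 and 2.14. BTN2, which sorts such aggregates, read 1.04 and 1.24, and the disaggregase HSP104 read 0.83 and 1.01. MDJ1, a co-chaperone of the mitochondrial matrix, read 0.72 and 1.14, and the mitochondrial chaperonin HSP60 read 0.48 and 0.81. The low members included the ribosome-bound chaperones SSB1 (-1.0 and -0.16) and SSB2 (-0.83 and -0.33), the Hsp110 SSE1 (-0.60 and -0.62), and HSP26 (-1.0 and -0.52). Proteasome subunits had 17 of 34 above 0 on both arrays and 2 below, but medians of 0.02 and 0.37 and 0 members at least 1.5-fold higher.

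Related genes differed within families. HSP30, a stress-induced membrane protein, read 1.10 on array 1 and 1.41 on array 2, whereas its relative MRH1 read -1.61 and -1.54 and YRO2 read -0.37 and -1.21. In glycolysis 13 of 21 genes were below 0 on both arrays and 4 above, with medians of -0.175 on array 1 and -0.027 on array 2. PFK2, a subunit of phosphofructokinase, read -0.78 and -0.65, and the main pyruvate kinase CDC19 read -0.69 and -0.50, whereas the minor pyruvate kinase PYK2 read 0.52 and 0.62. Hexokinase showed the same split, with HXK2 at -0.05 and -0.32 and HXK1 higher as given above. In the pentose phosphate pathway, which makes NADPH, GND1 read -1.05 and -1.07 and RKI1 read -1.28 and -0.93, within a list of 12 measured genes of which 7 were below 0 on both arrays and 2 above. The medians of that list were -0.096 on array 1 and -0.333 on array 2.

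Carbon metabolism suited to non-fermentable food was mixed. CIT2, the peroxisomal citrate synthase of the glyoxylate cycle and a standard reporter of the retrograde pathway from mitochondria to nucleus, read 1.57 on array 1 and 2.00 on array 2 (mean 1.78, 3.44-fold). ICL1, the isocitrate lyase of the same cycle, read 0.87 and 1.00. The retrograde genes as a list had no common direction. Of 10 targets 4 were above 0 on both arrays and 5 below, with 2 at least 1.5-fold higher and 1 lower. IDH1 read -0.64 and -0.04, IDH2 -0.70 and -0.21, ACO1 -0.34 and 0.15, and DLD3 0.46 and 0.03. ADY2, an acetate transporter, read 0.74 and 1.48. STL1, which imports glycerol with protons, read -1.72 and -1.51. Both genes of glycerol breakdown were below 0 on both arrays as well, the kinase GUT1 at -0.38 and -1.04 and the dehydrogenase GUT2 at -0.72 and -0.33. Low values were also found in ALD4, the mitochondrial aldehyde dehydrogenase, at -1.12 and -1.11 and in FDH1, formate dehydrogenase, at -1.59 and -0.92.

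GAP1, the general amino acid permease, had the highest value of any named gene on its lower array, with 1.72 on array 1 and 2.03 on array 2 (mean 1.88, 3.67-fold). It belongs to the genes that good nitrogen sources repress, of which 13 of 29 were above 0 on both arrays and 5 below. The proline oxidase PUT1 read 0.84 and 1.37, but the proline permease PUT4 of the same list read -0.91 and -1.52. Of 21 amino acid permeases 8 were below 0 on both arrays (38.1%, against 21.9% of all ORFs) and 5 above (23.8%, against 30.1%). Among the 8 was MMP1, which imports S-methylmethionine, at -0.87 and -1.18. In purine synthesis 11 of 14 genes were below 0 on both arrays and 0 above, with IMD3, an IMP dehydrogenase, at -0.77 and -0.63. In serine, glycine and one-carbon metabolism 11 of 15 were below 0 on both and 3 above, with GLY1, a threonine aldolase, at -0.93 and -0.87. Cell wall genes had 12 of 23 below 0 on both arrays and 0 above, with the exoglucanase EXG1 at -1.46 and -1.34. Their median was -0.443 on array 1 and -0.032 on array 2, so the list read low mainly on array 1.

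Most of the ORFs past 2-fold belonged to a list: 20 of the 27 higher and 46 of the 61 lower, against 1317 of all 6174. The lists were chosen with earlier results of these data known, a choice that favours such cover, so no conclusion is drawn from it. Among the ORFs in no list, AIM17, a gene linked to mitochondrial function in yeast screens, read 1.60 on array 1 and 2.18 on array 2. SPG1, which is needed in stationary phase and does belong to a list, that of quiescence, read 1.15 and 2.22. ATG15, a vacuolar lipase of autophagy, read 0.51 and 1.5. ATG8, which coats autophagosomes and belongs to the list of vacuolar proteases and autophagy, is given above at the 2-fold limit. These genes were above 0 on both arrays and higher on array 2. On the low side the cell wall protein PST1 read -1.40 and -1.32, and NEW1, an ATPase that acts on ribosomes, read -1.22 and -1.23. IFH1, a coactivator of ribosomal protein genes, also had a mean at least 2-fold lower. So did the cytosine permease gene FCY2 and SRO9, which codes for an RNA-binding protein. SRO9 read -0.42 on array 1 and -1.72 on array 2, so its size differed between the arrays.

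Lists tied to the drug, to iron-sulfur clusters and to the cell cycle showed little. Multidrug transport genes had 5 of 20 measured members above 0 on both arrays and 2 below, and 0 at least 1.5-fold from 0. Iron-sulfur cluster assembly had 9 of 25 above 0 and 2 below, likewise with 0 past 1.5-fold. Cyclins and cell cycle regulators had medians of 0.11 on array 1 and -0.05 on array 2. None of these 3 lists held a gene that was 1.5-fold from 0 with the same sign on both arrays.

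The W303 values were then set beside tetYFH1, whose arrays hold their own untreated cells. Over all ORFs the W303 mean correlated with pair A with r = 0.217 and with pair B with r = -0.248, across 6174 ORFs. The 27 higher ORFs had a median of 0.02 in pair A and -0.97 in pair B, against 0.04 and 0.13 over all ORFs. Of the 27, 23 were below 0 in pair B, against 33.4% of all ORFs. The 61 lower ORFs had a median of -0.24 in pair A and 0.79 in pair B. Of the 61, 54 were below 0 in pair A (43.8% of all ORFs) and 52 above 0 in pair B (60.2% of all ORFs). The genes farthest from 0 in W303 thus read differently in the 2 pairs of the other strain. In pair B, 2603 values of B1 and 1524 of B2 are exactly whole log2 numbers, against 4 and 5 on W303 arrays 1 and 2, and their part in these counts was not tested.

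A few genes read low in both strains. Of the 61 lower ORFs 8 were below 0 on all 4 tetYFH1 arrays too, namely GRE1, SIP18, STL1, FDH1, CHA1, PUT4, ALD4 and NOB1. Of all ORFs 6.75% were below 0 on those 4 arrays and 11.53% above. MRH1, ERG5 and SRO9 were the 3 of the 61 above 0 on all 4. GRE1 read -4.72 on A1 and on A2, the lowest value of each, -3.22 on B1 and -3.41 on B2, and it was the lowest ORF on both W303 arrays. The lowest values of A1 and A2 were identical as deposited (-4.7179), and whether they mark a limit of the ratios was not tested. CHA1, the serine deaminase, read -0.41 and -2.07 on W303 arrays 1 and 2, and -2.03, -2.25, -2.13 and -2.31 on A1, A2, B1 and B2. Of the 27 higher ORFs 0 were above 0 on all 4 tetYFH1 arrays, and 7 were below 0 on all 4, namely ATG8, CIT2, ADY2, HXK1, RTC3, PUT1 and YNL194C, against the same 11.53% and 6.75% of all ORFs. HSP30 was above 0 in W303 (1.10 and 1.41) and in pair A (1.79 and 2.60) but below 0 in pair B (-0.53 and -0.34).

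**Figure D4:**
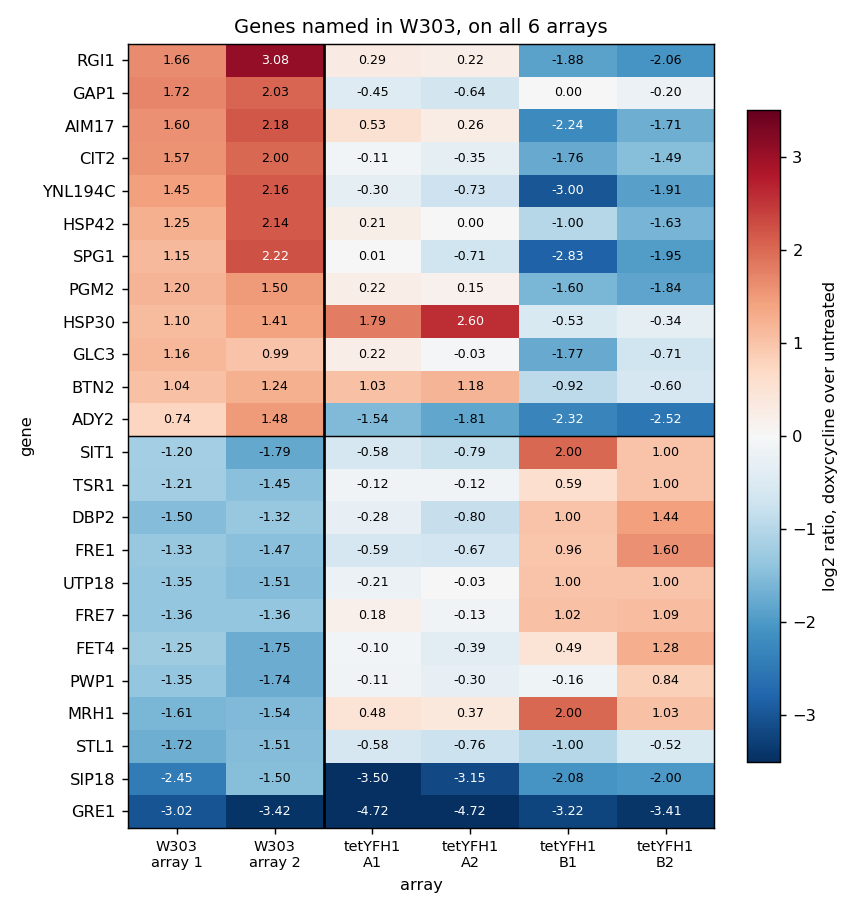
Log2 ratios of doxycycline over untreated for 24 genes named in W303, on W303 arrays 1 and 2 (left of the thick line) and on tetYFH1 arrays A1, A2, B1 and B2 (right), with 12 genes that were higher in W303 above and 12 that were lower below. GRE1 and SIP18 are low on all 6 arrays, and CIT2 and ADY2 are above 0 on the W303 arrays and below 0 on the tetYFH1 arrays.

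The difference between the strains was tested in the same limma fit, and 0 of 6174 ORFs (0%) passed an adjusted p of 0.05. The smallest adjusted p was 0.387, and 391 ORFs (6.33%) had an unadjusted p under 0.05. The genes named here are those with the largest test statistics. CIT3, the mitochondrial citrate and methylcitrate synthase, read 0.29 and 0.70 in W303, and -2.22, -2.49, -2.81 and -2.41 on A1, A2, B1 and B2. The difference was 2.97 (limma, 95% interval 2.08 to 3.87, adjusted p = 0.387). ADY2 read -1.54, -1.81, -2.32 and -2.52 on the tetYFH1 arrays, and differed by 3.16 (2.13 to 4.19, adjusted p = 0.387). Both genes were above 0 on the W303 arrays and below 0 on the 4 tetYFH1 arrays. On the low side MRH1 read 0.48, 0.37, 2.00 and 1.03 in tetYFH1, a difference of -2.54 (-3.72 to -1.36, adjusted p = 0.571).

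With each pair as a random block, limma called 10 genes for the difference, all higher in W303: CIT3, ADY2, MMS21, ACS1, GAP1, RGI2, GIP2, ALD3, ALD2 and PHM7. As said above, that fit in effect counted each array as a replicate. ALD2 and ALD3 are neighbouring copies of similar sequence, so their signals may not be separate. ACS1, the acetyl-CoA synthetase of respiratory growth, read 0.07 and -0.32 in W303, so its difference lay in the tetYFH1 values. The Adr1 targets, genes of growth on ethanol and fatty acids to which ACS1 belongs, had a median of -0.12 on array 1 and -0.07 on array 2, against -0.99 in pair A and -1.74 in pair B. General stress genes had medians of -0.52 in pair A and -1.43 in pair B, against the positive medians in W303 given above.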

How the data were processed

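Each array came as log2 ratios made by the authors, treated over untreated per the labels, for 6174 ORFs with 0 missing values. Per the labels' protocols, RNA of 30 ml cultures (8 µg) was labelled indirectly with Cy5 or Cy3. For scanner, probes, background correction and normalization: not given in the sources used here. The deposited values were used unchanged, and 0 value columns lacked a sample. ORF names were matched to locus tags of the R64 gene table, for names only: 5675 matched, 499 did not, and 5158 had a symbol.

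Dye swaps were averaged, and limma 3.58.1 (R 4.3.3) was fitted to the 3 pair means with 1 coefficient per strain (1 residual and 6.64 prior degrees of freedom), two-sided, with Benjamini-Hochberg adjustment over all ORFs. The script was tested on simulated data. Counts and medians of 61 gene lists carry no test. Nothing says that arrays came from separate cultures. In the main fit W303 had 1 pair mean, so its p-values rest on the spread between tetYFH1 pairs A and B. That spread may be technical, and it holds no spread between W303 samples. Precision is limited by the number of arrays. A dye swap may repeat the same RNA, so both values are given in place of an SD.

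Named genes were the 15 highest and 15 lowest by the smaller absolute value of both W303 arrays, the 10 highest and lowest means, up to 5 members of a list with its median and 2 against it, and the 8 highest and lowest differences between strains. Other genes were chosen after their values were seen. The arrays, lists and rules were chosen with earlier results of these data known. Alternatives were other fold limits, centring and scaling, other limma designs, turned ratios, the ORFs of the gene table alone, and omission of each array.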

Additional observations from a re-analysis of the deposited data

Results flagged for a closer look

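Some results were flagged because both W303 arrays lay on the one side of 0 and all 4 tetYFH1 arrays on the other. Only the 61 gene lists and the named genes were looked at. The share of all 6174 ORFs with such opposite signs was not counted. Of all ORFs 30.1% were above 0 on both W303 arrays and 21.9% below. On all 4 tetYFH1 arrays 11.53% were above 0 and 6.75% below. Among the 61 gene lists those flagged were cytosolic ribosomal proteins (median -0.49 in W303), cytosolic tRNA synthetases (-0.349), lysine synthesis (-0.333), cytosolic translation factors (-0.276), general stress response (0.276) and the glyoxylate cycle with gluconeogenesis (0.143). For lists this difference between the strains was not tested. Among genes with a W303 mean of at least 2-fold those flagged were YNL194C (mean 1.8), CIT2 (1.78), ADY2 (1.11), PUT1 (1.10), RTC3 (1.04), HXK1 (1.02), ATG8 (1.0008), SRO9 (-1.07), ERG5 (-1.32) and MRH1 (-1.57). Other named genes above 0 in W303 were PHM7 (0.98), BOP2 (0.91), FMP45 (0.88), MMS21 (0.81), GLG1 (0.59), PYK2 (0.57), RGI2 (0.57), CIT3 (0.49), ALD3 (0.42), ALD2 (0.34) and GIP2 (0.31). Below 0 in W303 were TKL1 (-0.92), NIP1 (-0.92), RPL8B (-0.88), KRS1 (-0.87), RPL21B (-0.83), PMA1 (-0.81), ARB1 (-0.67), IDH2 (-0.46), HXK2 (-0.18) and FET3 (-0.17). Some were named for their difference between the strains, a choice that favours opposite signs. In limma's test of the difference on pair means none of these genes passed an adjusted p of 0.05, and the smallest adjusted p was 0.387. The gene values in this section are means of both W303 arrays, which could differ in size. On arrays 1 and 2 SRO9 read -0.42 and -1.72, PMA1 -0.29 and -1.33, and ARB1 -0.23 and -1.12. MRH1, by contrast, read -1.61 and -1.54. With 2 W303 arrays, a single array could not be tested as an outlier.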

How the results depend on the processing

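The 2-fold counts of 27 higher and 61 lower ORFs were 22 and 67 with each array centred on its median, and 25 and 61 over the ORFs of the gene table. The other alternatives moved at least 1 of the counts by over 1.5 times. Those counts were 169 and 314 at 1.5-fold, 10 and 29 with 2-fold required on each array, 43 and 138 with arrays centred and scaled, and 61 and 27 with the ratios turned. Omission of 1 W303 array gave 15 to 102 higher and 106 to 115 lower, with 15 higher on array 1 alone and 102 on array 2 alone. In limma W303 had 1 higher and 1 lower call with each array as a replicate, 1 and 2 with pairs as a random block, and 50 and 107 from the W303 arrays alone, where all genes shared 1 spread. The Exp number follows the dye orientation on all 6 arrays. With it as a block and each array still counted as a replicate, W303 had 0 and 0 calls. That fit called 4 genes higher for the difference between strains. That difference had 8 calls with each array as a replicate and 10 with the random block, all higher, and 0 lower in each. Omission of 1 array gave 0 to 3 higher calls in W303, with 3 on array 2 alone, and 0 lower. List medians ranged over the single arrays from 0.241 to 0.418 for general stress, 0.147 to 0.449 for chaperones, and -0.464 to -0.38 for ergosterol. With centring and scaling they were -0.678 for ergosterol, -0.704 for ribosome assembly factors and -0.472 for polymerase I and III subunits. Of 61 list medians 50 kept their sign on array 1 alone, 49 on array 2 alone, 55 when centred or scaled, and 0 when turned, by construction. The causes were not tested.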
